A study of Homo sapiens with 2 samples.

Results

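LINC genes are human genes for long intergenic noncoding RNAs, which carry a running number as a name where no function has yet given them another. Of 54675 probe sets on the arrays, 1083 named exactly 1 such gene in the platform annotation, and these covered 839 LINC genes among 19775 genes that a probe set named alone. The rule that chose them used the symbol and no measured value, though earlier results of these data were known. Another 47 probe sets named a LINC gene together with a different gene and were left out. RNA came from FaDu, an established line of human squamous cancer of the pharynx. One stable line carried a control vector and the other carried GLUT4, the insulin-responsive glucose transporter, and both had been infected with lentivirus and kept in puromycin for the same selection. The methods call such lines stable clones, so a difference between clones and an effect of GLUT4 cannot be told apart. Total RNA was labelled with biotin and hybridised to Affymetrix U133 Plus arrays, with 1 array in each group. The comparison asked which transcripts differed between the lines, and with no replicate every difference below describes these 2 arrays and has no test.

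Long noncoding RNAs are made by RNA polymerase II and are mostly capped, spliced and polyadenylated, so that arrays primed from the poly(A) tail can read them. Some stay at the chromatin and act on neighbouring genes, others bind proteins or microRNAs in the nucleus or the cytoplasm, and for most no role is known. As a class they are made at lower levels and in fewer cell types than mRNAs. Several are widely studied in squamous and other epithelial cancers, among them LINC00460, LINC01503 and LINC01133.

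SLC2A4, the gene of GLUT4, was read by 1 probe set, at 28.3 with the vector and 32.6 with GLUT4, both below the median of all probe sets. No source used here says whether that probe set lies in the part of the transcript that the construct carries, so the groups rest on their labels, and "GLUT4 array" means the array labelled GLUT4. Over all probe sets, the arrays had medians of 39.7 (vector) and 39.1 (GLUT4). Of 10 squamous epithelial markers, 7 had a probe set that named the gene alone, and only these were used. All of these stood above the median on average, led by KRT5 with 11024 and 13093. Of these 7, KRT14 was higher with GLUT4 (1963 and 3985) and EPCAM lower (5361 and 3021) by more than 1.5-fold, and CDH1 had 3223 and 2224. The summed level of the leukocyte markers was 167 and 152 and that of the endothelial markers 91.2 and 97.1. The summed level of the fibroblast markers was 819 with the vector and 1441 with GLUT4, with DCN at 482 and 1050 and LUM at 38.5 and 79.9. The other members of that list stayed within 1.5-fold, COL1A1 with 224 and 226, COL1A2 with 31.6 and 35.4 and PDGFRB with 43.1 and 49.3. Each marker is given by its brightest probe set, for DCN 1 of 7 and for COL1A1 1 of 5. Both of these are of the x_at type, which can bind RNA of related sequences. The part of these markers in the LINC differences was not tested.

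The promoters that RefSeq gives for 4 of the LINC genes that differed are shown first, as a feature of these genes that the arrays did not read. LINC00938, LINC01806 and LINC02482 are shown because each had at least 2 probe sets above the median, all of them higher with GLUT4 and at least 1 past 1.5-fold, and LINC02806 because it was the brightest of those that were lower. Each window runs from 250 bases before to 50 bases after the annotated start in GRCh38.p14 and is printed 5' to 3' on the strand of the gene. The LINC00938 window is chr12:45727872-45728171 on the minus strand, that of LINC01806 is chr2:161244489-161244788 on the plus strand, that of LINC02482 is chr4:6673832-6674131 on the minus strand, and that of LINC02806 is chr1:148279018-148279317 on the plus strand. Capitals mark matches, on this strand or as the reverse complement, to the letters GGGCGG, known as the GC box, the letters TATAAA, known as the TATA box, or the letters CCGGAAG, which ETS factors bind.
LINC00938: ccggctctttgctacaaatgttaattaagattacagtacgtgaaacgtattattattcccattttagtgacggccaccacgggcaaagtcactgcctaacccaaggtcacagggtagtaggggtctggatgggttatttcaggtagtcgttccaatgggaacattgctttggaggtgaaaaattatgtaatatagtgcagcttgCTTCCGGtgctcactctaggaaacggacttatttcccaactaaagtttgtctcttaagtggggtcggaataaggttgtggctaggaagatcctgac
LINC01806: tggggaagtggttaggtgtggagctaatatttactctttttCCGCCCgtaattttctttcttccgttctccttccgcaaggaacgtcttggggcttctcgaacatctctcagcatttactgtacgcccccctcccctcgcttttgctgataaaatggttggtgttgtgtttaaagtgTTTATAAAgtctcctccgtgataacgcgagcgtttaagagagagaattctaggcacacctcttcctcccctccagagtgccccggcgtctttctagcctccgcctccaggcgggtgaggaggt
LINC02482: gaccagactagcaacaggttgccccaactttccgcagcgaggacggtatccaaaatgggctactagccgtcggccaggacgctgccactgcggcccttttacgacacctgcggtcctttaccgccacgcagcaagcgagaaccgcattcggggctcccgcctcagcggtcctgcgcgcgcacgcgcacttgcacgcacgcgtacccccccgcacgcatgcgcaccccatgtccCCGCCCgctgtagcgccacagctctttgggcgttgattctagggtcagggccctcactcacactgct
LINC02806: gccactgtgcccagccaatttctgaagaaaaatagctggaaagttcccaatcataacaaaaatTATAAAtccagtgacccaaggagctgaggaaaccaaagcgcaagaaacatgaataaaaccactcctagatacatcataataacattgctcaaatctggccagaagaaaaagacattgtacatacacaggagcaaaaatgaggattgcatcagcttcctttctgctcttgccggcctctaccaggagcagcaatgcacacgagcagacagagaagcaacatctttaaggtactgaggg

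The windows differed in their letters. That of LINC00938 held an ETS match that began at position -46 from the start, and that of LINC02482 held a GC box at -17. LINC01806 had a GC box at -209 and a TATA box at -71, which overlaps a match on the other strand. LINC02806, the lower one, had a TATA box at -187. Its window had 43.0% GC, and the windows of the higher ones had 44.3% (LINC00938), 50.7% (LINC01806) and 65.3% (LINC02482). The other genes with a lower probe set above the median had 38.7% (LINC01792), 59.0% (LINC02210) and 64.7% (LINC00857). A match is a description of the sequence and not evidence of a binding site.

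LINC transcripts were dim in FaDu cells. The median intensity of the LINC probe sets was 15.1 with the vector and 14.7 with GLUT4, compared with 63.4 and 62.2 for protein-coding genes. Of the 1083 probe sets, 214 (19.8%) lay above the median of all probe sets, which was an intensity of 39.3 as the mean of both arrays on the log2 scale, and 869 (80.2%) lay below it. The share above the median was 29.0% for antisense genes, 27.9% for other long noncoding RNA genes, 25.1% for probe sets with no gene named and 60.3% for protein-coding genes. LINC genes were thus the group with the smallest share above the median among these 5. By gene, 175 of 839 (20.9%) had a probe set above the median, and 664 had none. An intensity over 100 on both arrays was reached by 68 LINC probe sets (6.28%) and by 40.2% of the protein-coding ones. Intensities of different probe sets depend on their probes as well as on the RNA, so these shares describe signal and not molecules. In a bulk sample, fewer cells with a transcript and less of it per cell cannot be told apart.

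**Figure D1:**
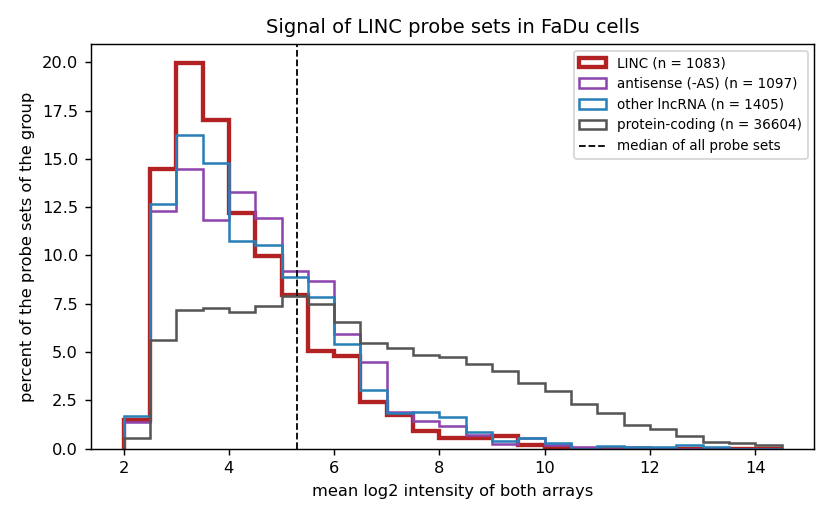
Distribution of signal in FaDu cells for LINC, antisense, other long noncoding and protein-coding probe sets. The x axis gives the mean log2 intensity of the vector and GLUT4 arrays, the y axis the percent of the probe sets of each group in bins of equal width, and the dashed line the median of all probe sets. Most of the 1083 LINC probe sets lie left of the line, where 869 of them are, while 60.3% of the protein-coding ones lie right of it.

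A few LINC transcripts were bright on both arrays. LINC00623 had 1229 with the vector and 1331 with GLUT4, and LINC00621 had 960 and 999. Both were read by probe sets of the x_at type, which can bind RNA of related sequences, so the source of these signals is uncertain. LINC01503, known from squamous cancers as a target of the p63 transcription factor, had 863 and 827, a log2 difference of -0.06. LINC00467, which encodes a small peptide besides acting as an RNA, had 586 and 671 on its brightest probe set and 504 and 530 on another. LINC01116 had 553 and 656, a log2 difference of 0.25. An intensity over 500 on both arrays was found in 8 LINC probe sets of 7 genes, and every one of the 8 differed by less than 1.5-fold. Of all 12910 probe sets with a mean intensity over 200, 1.88% were more than 1.5-fold higher and 1.66% lower. Such small shares mean that 8 probe sets say little here.

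Above the median, 13 of 214 LINC probe sets were more than 1.5-fold higher with GLUT4 (6.07%), and over all 27337 probe sets in that range the share was 2.88%. Another 4 were more than 1.5-fold lower (1.87%), and over all probe sets in that range the share was 1.82%. The 13 came from 11 genes and the 4 from 4 genes. The LINC share was larger than the background among higher probe sets and close to it among lower ones. The other 197 lay within 1.5-fold, and the median log2 difference (GLUT4 minus vector) was 0.01, against 0.00 over all probe sets above the median. Of the 214, 109 had a difference above 0. A 2-fold difference was passed by 3 LINC probe sets upward and 1 downward, beside 193 and 86 of all 27337 probe sets in that range.

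The class itself leaned on the difference for some of these. On the vector array, 4 of the 13 higher probe sets stood below that array's median, and on the GLUT4 array 2 of the 4 lower ones did. Among the 192 LINC probe sets above the median on both arrays, 9 (4.69%) were higher and 2 (1.04%) were lower, compared with 2.56% and 1.69% of all 26510 probe sets of that kind. Differences at low signal were also sensitive to an added constant: with 32 added to every intensity before the log, 6 LINC probe sets (2.80%) above the median were higher and 1 (0.467%) was lower, compared with 1.67% and 1.02% of all.

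**Figure D2:**
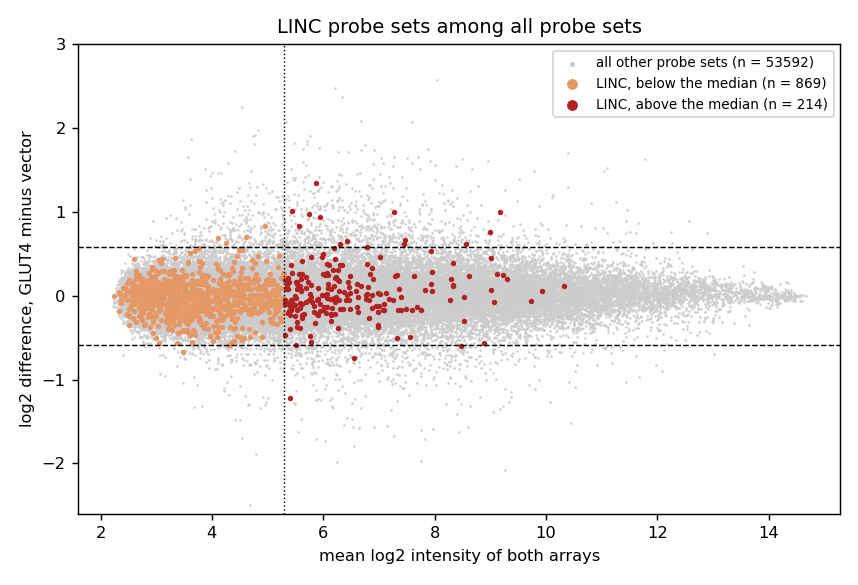
Log2 difference (GLUT4 minus vector, y axis) against mean log2 intensity of both arrays (x axis) for all other probe sets in grey, LINC probe sets below the median in orange and those above it in red. The dotted line is the median of all probe sets and the dashed lines are 1.5-fold. The red points range from -1.22 to 1.34, and 17 of 214 lie outside the dashed lines.

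LINC00938, which lies next to the chromatin remodelling gene ARID2, differed on most of its probe sets. Its brightest probe set had an intensity of 390 with the vector and 659 with GLUT4, a log2 difference of 0.76. A dimmer one above the median had 44.5 and 85.0, a difference of 0.93. Of the 2 below the median, one had 19.1 and 31.1 (0.70) and the other 12.7 and 13.3 (0.06). All 4 were higher on the GLUT4 array, and 3 of them passed 1.5-fold. LINC02482, beside MRFAP1L2, was the other gene with at least 2 probe sets above the median that all passed: these had 141 and 142 on the vector array and 224 and 217 on the GLUT4 array, differences of 0.67 and 0.62. Probe sets of 1 gene share the same RNA sample on each array and are not replicates.

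LINC01806 had the brightest signal among the probe sets that were higher. Its intensity was 410 with the vector and 821 with GLUT4 (1.0 on the log2 scale), and its second probe set had 440 and 601, a difference of 0.45 that stayed within 1.5-fold. LINC01560, which overlaps the zinc finger gene ZNF41 in the annotation, had 109 and 218, a difference of 1.0. LINC03011 had 307 and 470, a difference of 0.61. These 3 were well above the median on either array. Transcripts of overlapping genes can share signal, so the source of the LINC01560 signal is uncertain.

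Other large log2 differences, the largest among them, came from probe sets near the median. LINC03026 had 36.6 with the vector and 92.8 with GLUT4, a difference of 1.34, and it overlaps another annotated gene. LINC01537 had 30.7 and 61.9 (1.01). LINC01465 had 38.3 and 75.4 (0.98), and LINC01023 had 35.6 and 63.4 (0.83). All 4 started below the median of the vector array. With 32 added to the intensities their differences were 0.86, 0.58, 0.61 and 0.50, so that LINC01537 and LINC01023 no longer passed 1.5-fold. LINC00165 had 68.6 and 108 (0.66). LINC03027 had 63.6 and 97.1 (0.61), while its second probe set had 57.2 and 54.4 (-0.07), so that its probe sets did not share a direction.

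The 4 LINC genes with a lower probe set each had limits of their own. LINC01792 had 64.2 with the vector and 27.6 with GLUT4, a log2 difference of -1.22, the one lower difference past 2-fold and the one still past 1.5-fold with 32 added (-0.69). LINC02806 had 438 and 289 (-0.60), and its other probe sets had 124 and 112 (-0.15) and 9.69 and 8.58 (-0.18). LINC02210, which shares sequence with a readthrough transcript into the receptor gene CRHR1, had 121 and 72.2 (-0.75), but its brightest probe set had 215 and 195 (-0.14) and another had 139 and 142 (0.03). LINC00857 had 55.9 and 37.3 (-0.59), just past the threshold of 0.58 on the log2 scale. The probe sets nearest outside the threshold were LINC01139 with 90.0 and 135 (0.58, just short of it), LINC01111 with 60.1 and 89.3 (0.57) and LINC00592 with 571 and 388 (-0.56).

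**Figure D3:**
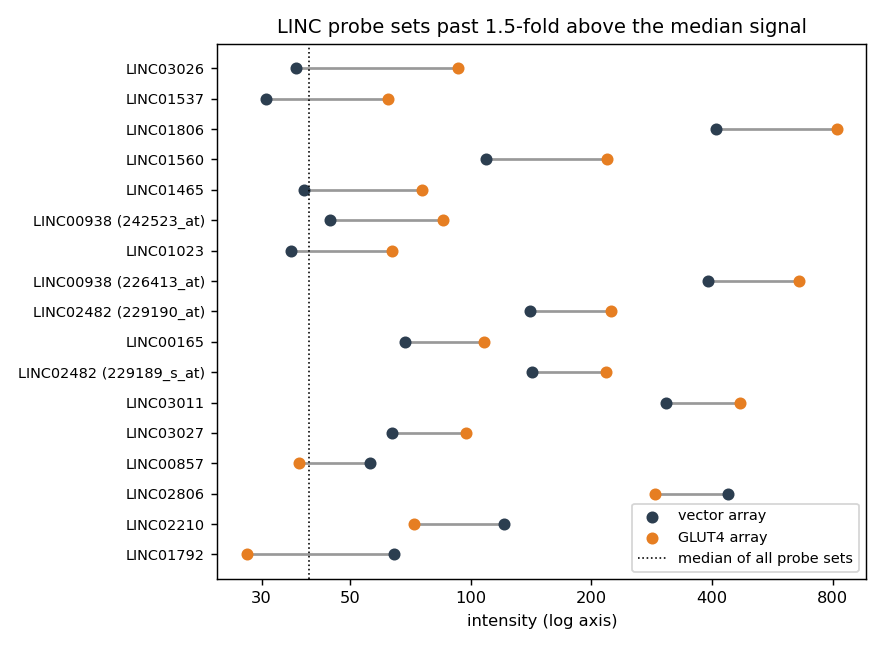
Intensity (x axis, log scale) on the vector array (dark) and the GLUT4 array (orange) for the 17 LINC probe sets above the median signal that differed by more than 1.5-fold, 1 array each. Genes with 2 such probe sets are shown with the probe set name, and the dotted line is the median of all probe sets, at 39.3. The 13 higher probe sets end between 61.9 and 821 on the GLUT4 array, and 4 of them start left of the line.

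Below the median, 4 of 869 LINC probe sets were more than 1.5-fold higher (0.460%), where the share of all probe sets below the median was 1.2%, and 3 were more than 1.5-fold lower (0.345%), where that share was 0.611%. The median log2 difference was -0.04, as over all probe sets below the median, and no LINC probe set there passed 2-fold. Of all 27338 probe sets below the median, 65 were more than 2-fold higher and 23 lower. The higher ones were LINC02749 with 23.3 with the vector and 41.6 with GLUT4 (0.84), the dim probe set of LINC00938, LINC01527 with 13.6 and 21.8 (0.68) and LINC00312 with 15.4 and 23.8 (0.63). The brighter probe set of LINC00312, a gene first described in nasopharyngeal carcinoma, had 44.4 and 38.4 (-0.21), the opposite direction. The lower ones were LINC00472 with 14 and 8.80 (-0.67), LINC02873 with 24.6 and 16.4 (-0.59) and LINC00900 with 24.1 and 16.1 (-0.59). The other probe set of LINC00472 had 11.7 and 11.5 (-0.02). With 32 added to the intensities none of these 7 passed 1.5-fold.

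Genes with several probe sets gave the one measure of technical spread that the arrays allow. Whether the probe sets of a gene read the same transcript was not checked, so this spread may not be technical alone. Of the LINC genes, 671 had 1 probe set, 150 had 2 or 3 and 18 had 4 or more. In 32 LINC genes the brightest pair of probe sets both lay above the median, and their log2 differences (GLUT4 minus vector) departed from each other with an SD of 0.27, or 0.19 for each probe set alone. Across these 32 genes the pair correlated with a Pearson r of 0.58, a description across genes, since both probe sets of a pair met the same RNA sample. In 95 genes both lay below the median, where the SD for each alone was 0.22 and r was -0.11. In 41 genes the brightest pair lay on opposite sides of the median, with 0.24 and an r of -0.19. Over all genes the values were 0.19 and 0.50 above the median (6102 genes), 0.20 and 0.12 below it (2173 genes) and 0.24 and 0.18 with the pair on opposite sides (2248 genes). Across LINC genes the differences of a pair thus correlated where both lay above the median, and not where either lay below it. The pairs above the median included LINC00938 (0.76 and 0.93), LINC02482 (0.67 and 0.62) and LINC01806 (1.0 and 0.45). These had the largest positive differences on the brightest probe set. On the second, LINC00491 had 0.47, slightly above LINC01806. The r may rest largely on the pairs of LINC00938, LINC02482 and LINC01806, and r without these pairs was not computed. The spread between probe sets covers neither separate cultures nor separate labellings.

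**Figure D4:**
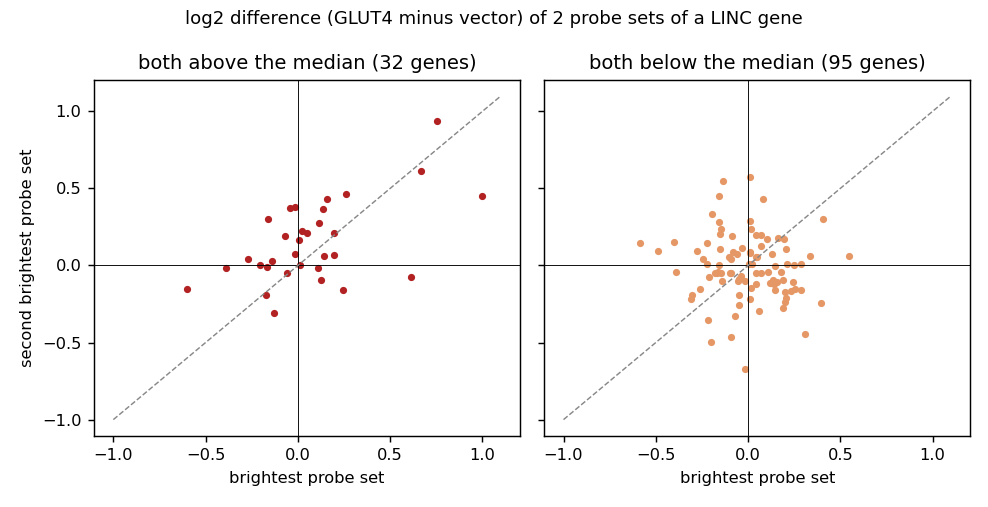
Log2 difference (GLUT4 minus vector) of the brightest probe set of a LINC gene (x axis) against that of its second brightest (y axis), with the line of equality dashed. On the left both probe sets lie above the median signal (32 genes, r 0.58) and on the right both lie below it (95 genes, r -0.11).

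Among the 18 LINC genes with 4 or more probe sets, LINC00938 was described above, and LINC02210 was the only other one with a probe set past 1.5-fold. LINC00205, with 7 probe sets the most of any LINC gene, had 92.3 with the vector and 102 with GLUT4 on its brightest, and its differences ran from -0.15 to 0.42. LINC00662, with 5, had 308 and 333 (0.11) on its brightest and a range from -0.24 to 0.27. LINC00674 had 234 and 258 (0.14), LINC01128 had 245 and 254 (0.05), LINC00957 had 179 and 160 (-0.17) and LINC01016 had 230 and 205 (-0.17) on their brightest. LINC02693 had 117 and 118 (0.01), and LINC02981 had 52.4 and 57.0 (0.12). LINC00663, LINC00689 and LINC01949 each had 1 probe set above the median, with brightest differences of -0.10, 0.19 and 0.08. LINC00470, LINC00665, LINC00667, LINC00944 and LINC02532 had none above it. Of these, LINC00667 had the largest difference on its brightest probe set, with 24.4 and 18.6 (-0.39).

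A list of 19 LINC symbols with published roles in squamous or other epithelial cells was described as a whole. Of these, 13 were measured under a LINC symbol and 8 of the 13 stood above the median by their brightest probe set. By that probe set, none of the 13 passed 1.5-fold in either direction, the median log2 difference was -0.06 and the values ran from -0.34 to 0.41. Over all probe sets above the median, 2.88% were more than 1.5-fold higher and 1.82% lower, and below it 1.2% and 0.611%. With shares this small, finding none among 13 says little about the list. LINC00460, which is linked to migration in head and neck cancer, had 546 with the vector and 520 with GLUT4 (-0.07) and on a second probe set 72.2 and 82.4 (0.19). LINC00958 had 83.3 and 74.7 (-0.16), LINC00520 had 46.0 and 42.4 (-0.12) and LINC00668 had 45.2 and 42.3 (-0.09). LINC00963 had 82.9 and 92.5 (0.16), with 63.6 and 85.9 (0.43) on an x_at probe set, and LINC01089 had 111 and 127 (0.19). LINC01503 and LINC01116 are given above, as is LINC00472, whose dimmer probe set passed 1.5-fold. LINC00261, which lies beside the endodermal factor gene FOXA2, had 39.0 and 35.7 (-0.12), just under the median. LINC01133 had 10.3 and 13.7 (0.41), LINC01305 had 7.87 and 6.21 (-0.34) and LINC00673 had 16.3 and 17.0 (0.07), all far below the median. The second probe set of LINC01133 had 7.08 and 8.75 (0.30), the same direction as the first.

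Some genes of that list have left the LINC series as they received names. LINC00162 is now PICSAR, an RNA of cutaneous squamous carcinoma, and had 583 and 1004 (0.78). LINC00152 is now CYTOR and had 28.7 and 36.8 (0.35). LINC00936, which is not on that list, is now ATP2B1-AS1 and had 89.2 and 192 (1.11). None of these is counted among the LINC genes here. In all, 170 measured genes have a LINC symbol among their synonyms in RefSeq. A synonym does not show that a gene left the series. AGO2 and SUCLA2 among them are protein-coding, and some synonyms, such as LINC00473 and LINC01260, also name LINC genes counted here. Of the 170, 75 (44.1%) stood above the median by their brightest probe set. Of these, 8 were more than 1.5-fold higher and 2 lower, beside 2.88% and 1.82% of all probe sets above the median. The lower ones were UCA1 (synonym LINC00178), with 1178 and 657 (-0.84), and STARD13, with 513 and 286 (-0.84). STARD13 is annotated as protein-coding and has LINC00464 as a synonym. Of the LINC genes counted here, 20.9% had a probe set above the median, and both sets share some symbols. Of the 75, 23 are annotated as protein-coding.

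LINC probe sets lay between the coding and the other noncoding groups in how often they were higher. Above the median, more than 1.5-fold higher values were found for 14.2% of 318 antisense, 9.69% of 392 other long noncoding, 5.48% of 2954 unnamed and 2.22% of 22059 protein-coding probe sets, beside the 6.07% of LINC. More than 1.5-fold lower values were found for 0.629%, 1.53%, 1.29% and 1.93% in the same order, beside 1.87% of LINC. With 32 added, the higher shares were 9.75%, 5.36%, 3.32% and 1.25%, beside 2.80% of LINC. The median signal above the median was alike in the LINC (72.7), antisense (72.2) and other long noncoding groups (76.1) and higher in the protein-coding group (212). Differences between these shares have no test with 1 array in each group. Within ranges of signal, 4 of 76 LINC probe sets up to 60 were higher (all probe sets 3.09%), 3 of 67 from 60 to 100 (3.53%), 3 of 42 from 100 to 200 (4.76%) and 3 of 29 over 200 (1.88%).

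**Figure D5:**
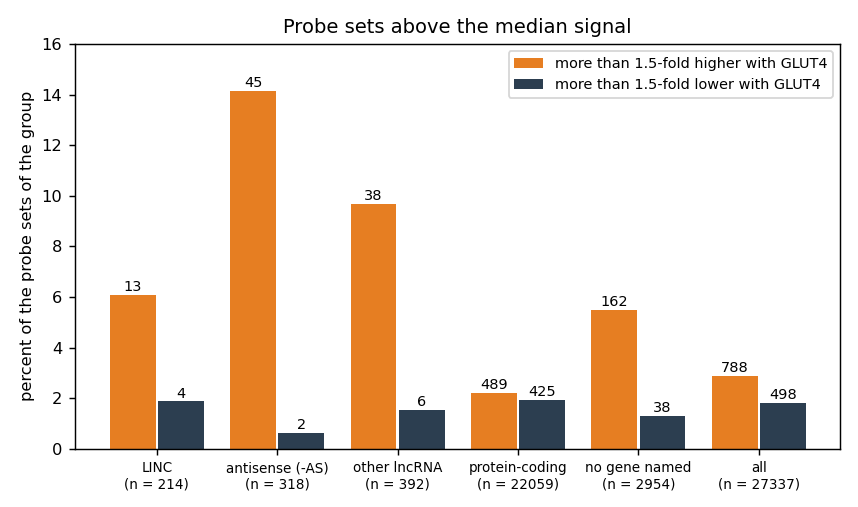
Percent of the probe sets above the median signal (y axis, from 0) that were more than 1.5-fold higher (orange) or lower (dark) on the GLUT4 array, for LINC genes and 4 other groups and for all probe sets, with the number of probe sets over each bar. The LINC bar for higher values, 6.07%, lies above those of protein-coding genes and all probe sets and below those of antisense and other long noncoding RNA genes.

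Neighbouring genes were compared because some long noncoding RNAs act on the gene beside them. The nearest protein-coding gene in the RefSeq annotation of GRCh38.p14 was taken for each LINC gene. Of 172 LINC genes with a RefSeq record and a probe set above the median, 135 had a measured neighbour, and 111 of these neighbours stood above the median too. Across the 111 pairs, the log2 differences of the LINC gene and its neighbour had a Pearson r of -0.07 and a Spearman rho of -0.06, given as a description across genes. By the brightest probe set, 14 LINC genes passed 1.5-fold and 12 of them had a measured neighbour. In 0 of the 12 did the neighbour pass 1.5-fold in the same direction, and in 6 of them it had the same sign. Few neighbours passed at all, 6 of the 111, so the count of 0 says little about the pairs.

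Single pairs show this. ARID2, beside LINC00938, had 243 with the vector and 182 with GLUT4 (-0.41), opposite to the LINC gene. TANK, a regulator of signalling to NF-kappaB beside LINC01806, had 1247 and 1063 (-0.23), and ZNF41, which LINC01560 overlaps, had 68.7 and 53.0 (-0.37). These 3 neighbours were lower where the LINC gene was higher, each within 1.5-fold. MRFAP1L2, beside LINC02482, had 1281 and 1434 (0.16), and SLX9, beside LINC00165, had 209 and 241 (0.21). AOX1, the aldehyde oxidase gene beside LINC01792, had 245 and 204 (-0.26), the same sign as the LINC gene.

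The promoters of LINC genes were poorer in GC than those of other genes, and those with signal above the median less so. A window was given for 587 of the LINC genes, and the first listed was used for each. The median GC content was 58.3% over 27305 genes in the table, 58.2% in 132 LINC genes with a probe set above the median and 47.3% in 455 without one. The ratio of observed to expected CpG was 0.58 over all genes, 0.45 in LINC genes above the median and 0.24 in those below. A GC box was found in 44.6% of all windows, in 42.4% of LINC windows above the median and in 16.9% below it. The TATA box was found in 12.0%, 12.9% and 18.2% in the same order, the ETS motif in 10.7%, 11.4% and 4.18%, and the E-box CACGTG in 7.43%, 8.33% and 5.93%. Of the 15 LINC genes past 1.5-fold above the median, 14 had a window, and 8 of the 14 held a GC box. The median GC content of LINC windows above the median was thus close to that of all genes, and that of the others was lower.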

How the data were processed

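FaDu cells with control vector or GLUT4 were measured on 1 array each. The intensities that the authors deposited are on a linear scale and already normalized. According to the methods, GeneSpring was used for log2 normalization, while MAS5 stands in the submitters' processing notes. No source used here says how these went together. Detection calls were not used. Differences are log2 of GLUT4 minus log2 of vector, after a floor of 1. Probe sets were split at the median of the mean log2 level. Past 1.5-fold, the threshold of the methods, was counted in place of a test. The number of arrays limits the precision.

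LINC genes were matched to RefSeq by gene ID (832 matched, all of them lncRNA). Members and lists were chosen with earlier results of these data known. Named genes were all LINC genes past 1.5-fold above the median, the 5 brightest, the 3 largest differences in each direction below the median, all with 4 or more probe sets, and the role list. The probe sets nearest outside the threshold, LINC00312, single neighbours, ATP2B1-AS1, UCA1 and STARD13 were chosen after their values were seen. Alternatives were scaling to equal medians, quantile and loess, offsets of 16 and 32, probe set types, the class by vector or by both arrays, and 1 value per gene. Counting was tested on simulated data. Python 3.11.15, pandas 2.3.3 and statsmodels 0.14.6 were used.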

Additional observations from a re-analysis of the deposited data

How the results depend on the processing

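With 1 array in each group, neither culture nor labelling varied within a group, so no call has a replicate check, and most LINC probe sets lie at signals where probe sets of 1 gene did not share their differences. No paired analysis was possible because each group has 1 array. No named LINC gene past 1.5-fold by its brightest probe set changed sign under the alternatives run for it. Values near 0 did: the median above the median signal (0.01) was -0.01 with quantile normalization, -0.02 with the class set by the vector array and -0.03 by the brightest probe set, and so did LINC00460, LINC00470, LINC00472, LINC00662, LINC00665, LINC01016, LINC01949 and LINC02693, each under the mean of its probe sets or a scaling. Above the median, the 13 higher LINC probe sets became 6 with an offset of 32 and otherwise stayed within 1.5 times of 13. The 4 lower became 2 with equal medians, with an offset of 16, with the mean of all probe sets per gene and with classes set by both arrays (chosen after seeing the data), and 1 with an offset of 32. Below the median, the 4 higher became 7 with loess, 8 with the class set by the vector array, 2 with 1 value per gene (brightest or mean) and 0 with either offset. The 3 lower became 1 with equal medians, quantile, loess or the mean per gene, and 0 with either offset. With the offset of 32 the shares of all probe sets became 1.67% higher and 1.02% lower above the median, and 0.0732% and 0.0366% below it. Of the 14 LINC genes past 1.5-fold by their brightest probe set above the median, 12 remained past it with equal medians, 13 with loess, 13 with quantile normalization and 6 with an offset of 32. Of the 5 genes with a mean over several probe sets, 3 remained past it. LINC00857 was within 1.5-fold under each of these 4.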
